A study of Mus musculus with 4 samples.

Results

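The 41 genes described here are interferon-stimulated genes of the mouse, and the values are fragments of their mRNAs that were counted in small RNA libraries of macrophage-like cells and of the vesicles those cells released. They are defined by gene symbol from what is known of the interferon response and not by a threshold on the measured values, although the list was drawn up with earlier results of these data known, and the rows of the deposited table were matched to them through the GENCODE M21 annotation (GRCm38). All 41 symbols were found, with 186 transcripts, among 55563 genes of the table, of which 21805 are protein-coding. A gene is called measured in a pair of libraries when it had at least 50 counts over the pair. By that rule 32 of the 41 genes were measured in at least 1 of 4 pairs and 10 in all 4 pairs. The other 9 (Isg15, Ifit3, Ifit3b, Oasl2, Mx1, Igtp, Gbp2, Gbp3 and Ifi47) were measured in none, with at most 35 counts in any library.

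Type I interferons act through a cell-surface receptor and the kinases JAK1 and TYK2. The signal ends in a complex with STAT2 and IRF9 that binds the interferon-stimulated response element of target promoters. The products of the induced genes bind or degrade foreign RNA, hold virus particles at the membrane, tag proteins with the ubiquitin-like ISG15, signal to other cells, and feed back on the pathway. Macrophages keep many of these genes at a basal level and induce them strongly after they sense nucleic acids.

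The cells were of the mouse line RAW264.7 and carried a short hairpin RNA that is switched on by doxycycline, either a non-silencing hairpin (shNS) or a hairpin against Dis3l2 (shDis3l2), the gene of an exonuclease that degrades RNAs with uridine tails. All cells received doxycycline at 1 µg per mL, renewed each day, for 3 days and then for another 24 h in medium whose serum had been depleted of vesicles, so both groups carried an induced hairpin and no untreated cells were analysed here. Vesicles came from the medium of those 24 h, were purified by centrifugation and a sucrose gradient, and were treated with micrococcal nuclease, which the cells were not. RNA of cells and of vesicles was made into libraries with the QIAseq miRNA kit, which gave 4 groups of 1 library each (cells shNS, cells shDis3l2, vesicles shNS and vesicles shDis3l2). In the sentences below, values for cells or for vesicles are given with the label shNS first and the label shDis3l2 second.

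The response element could be seen in the promoters of these genes. RefSeq promoter sequences (GRCm38.p6, from 250 bases before to 50 after the start) were matched for 32 of the 41 genes. GAAA followed after any 2 bases by GAAA, the core of the element, was searched on both strands and was found in 18 of the 32 genes (56.2%), against 3.99% of the 27025 genes in the promoter table. Of the 18 genes, 14 had the whole match upstream of the start. The stretches of 7 of these are printed to show the element across the roles described below (the ISG15 pathway, effectors, a GTPase and a chemokine), with the matches in capitals, run together where they overlap. TTTC followed after any 2 bases by TTTC is the same motif read from the other strand. They lie, in the same order, at chr4:156200860-156200911 (minus strand), chr19:34640789-34640828 (plus), chr12:26456548-26456587 (minus), chr5:120907526-120907560 (minus), chr8:71537572-71537617 (minus), chr11:48871421-48871465 (minus) and chr5:92349078-92349117 (minus), and each is written on the strand of its gene.
Isg15: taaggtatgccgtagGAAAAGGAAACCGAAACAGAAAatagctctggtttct
Ifit1: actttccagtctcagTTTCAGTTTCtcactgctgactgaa
Rsad2: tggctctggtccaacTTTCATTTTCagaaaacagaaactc
Oas1a: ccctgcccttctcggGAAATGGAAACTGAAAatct
Bst2: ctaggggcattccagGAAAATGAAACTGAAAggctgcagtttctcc
Irgm1: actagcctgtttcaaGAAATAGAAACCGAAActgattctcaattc
Cxcl10: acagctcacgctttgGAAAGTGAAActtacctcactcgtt
Isg15 had 3 overlapping matches, and Oas1a, Bst2 and Irgm1 had 2 each. These letters are a description of the windows. Dhx58, Mx1, Mx2, Oas2, Parp14, Parp9, Rtp4, Usp18 and Zbp1 were not matched.

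The libraries held 17612856 to 19741041 counts, so a count of 0 allows a level of up to 0.152 to 0.170 counts per 1000000 of all counts (CPM), with a floor of 3 counts per library. The share of counts on transcripts annotated as protein-coding was 3.35% and 4.31% in cells, against 12.9% and 16.9% in vesicles. Because this share moved with both compartment and label, ratios are given in CPM and, beside it, in counts per 1000000 on protein-coding transcripts (the protein-coding scale). Intervals are exact 95% intervals for counting error only. With 1 library per group there is no spread between replicates, and whether reads were collapsed to molecules was not given in the sources used here. Dis3l2 itself had 41 and 13232 counts in cells and 1713 and 1894 in vesicles. Whether these counts came from its mRNA or from the hairpin was not tested, so they are no measure of the knockdown. Every library is therefore named by its label. Of 10 macrophage markers, 9 or 10 had counts in each library, and their summed level was 35.1 and 36.9 CPM in cells and 288 and 397 CPM in vesicles. The step between the vesicle libraries was that of Cd14 (59.1 and 198 CPM), since the other 9 summed to 228 and 199 CPM and Lyz2 had 119 and 77.4. Erythroid markers summed to 7 and 6 counts in cells and to 67 and 173 counts in vesicles, nearly all on the globin gene Hbb-bs, while Hba-a1 and Hbb-bt were at 0 in all 4 libraries. Markers of fibroblasts (39 to 57 counts), epithelium (5 to 14) and T and B cells (25 to 47) stayed low. The part of these other RNAs in the results below was not tested.

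Summed over the 41 genes, interferon-stimulated fragments were several times more abundant in vesicles than in cells when scaled to all counts. The sums were 1403 and 1562 counts in cells and 7113 and 10627 counts in vesicles, or 71.1 (67.4 to 74.9), 84.8 (80.7 to 89.1), 391 (382 to 400) and 603 (592 to 615) CPM. On the protein-coding scale the 4 libraries stood much closer, at 2119, 1968, 3035 and 3567 counts per 1000000. Trim25 alone held 652, 527, 3996 and 5767 of these counts, so sums are also given without it. The other 40 genes had 38.0, 56.2, 171 and 276 CPM, and 1134, 1304, 1330 and 1631 counts per 1000000 on the protein-coding scale. A lower level in such bulk RNA cannot tell fewer cells or vesicles with a fragment apart from fewer fragments in each.

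**Figure D1:**
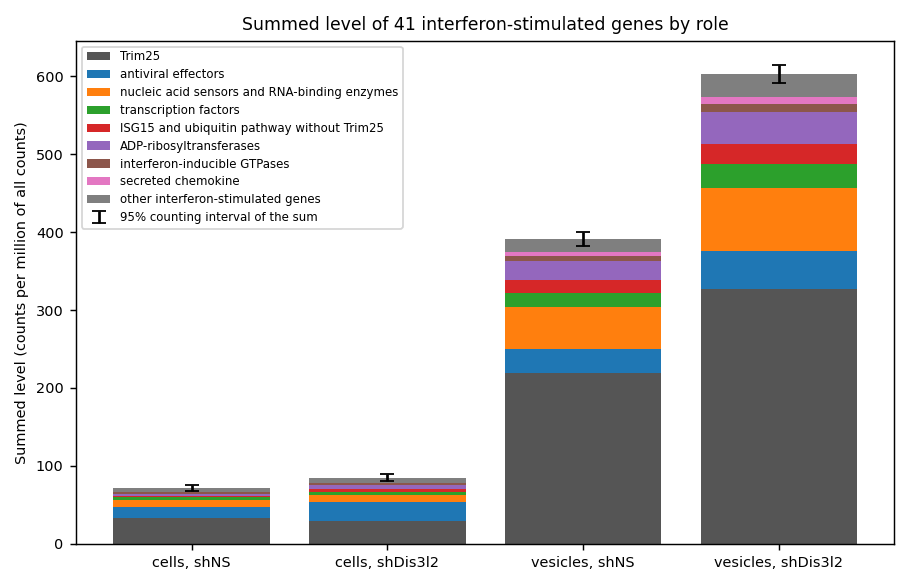
Summed level of the 41 interferon-stimulated genes in each of the 4 libraries, in CPM, stacked by the role of the genes, with Trim25 drawn as a part of its own. The bars reach 71.1 and 84.8 CPM in cells and 391 and 603 CPM in vesicles (error bars are 95% counting intervals of the sum), and Trim25 is the largest part of both vesicle bars.

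Among the antiviral effectors some genes had their higher values in cells and others in vesicles. Ifit1, which binds foreign RNA ends and blocks their translation, had 123 and 244 counts in cells and 18 and 20 in vesicles. It was thus a gene of the cell libraries, and the 2 compartments did not overlap. Rsad2, the gene of the radical enzyme viperin, had 85 and 46 counts in cells and 51 and 80 in vesicles, where the compartments overlapped. Ifit2, a relative of Ifit1, had 5 and 17 counts in cells against 30 and 49 in vesicles.
Of the oligoadenylate synthetase family, whose active members make the signal that switches on RNase L, 4 genes had higher values in vesicles in CPM, though Oas2 turned to a ratio below 1 on the protein-coding scale under both labels (log2 -0.46 and -0.92). Oas1a had 0 and 13 counts in cells and 91 and 105 in vesicles. Oas2 had 16 and 27 counts in cells and 42 and 54 in vesicles, and Oas3 had 20 and 37 in cells and 117 and 163 in vesicles. Oasl1, which in mice represses the translation of Irf7 mRNA, had 4 and 19 counts in cells and 59 and 118 in vesicles. For each of these 4 genes both vesicle libraries stood above both cell libraries in CPM, which was not so for their relative Oasl2. Higher CPM in vesicles was common, at 88.2% of measured protein-coding genes with the label shNS and 89.6% with shDis3l2, so it does not set these genes apart.
Both vesicle libraries also stood above both cell libraries in CPM for 2 effectors that act on virus particles. Bst2, the gene of tetherin, which holds budding particles at the cell surface, had 3 and 21 counts in cells and 68 and 111 in vesicles. Mx2, a dynamin-like GTPase gene that the annotation types as a polymorphic pseudogene, had 2 and 19 counts in cells and 57 and 92 in vesicles. In cells these genes were seen mainly in the library labelled shDis3l2. Of the effectors below 50 counts in every pair, Oasl2 had 18 and 8 counts in cells and 14 and 35 in vesicles, Mx1 had 8 and 11 in cells and 4 and 11 in vesicles, Ifit3 had 2 to 5 counts in each library, and Ifit3b had 0 in all 4.

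Among sensors of foreign nucleic acid and RNA-binding enzymes, the kinase gene Eif2ak2 and the editing enzyme gene Adar had the most counts in vesicles. Eif2ak2 encodes PKR, which stops translation when it binds double-stranded RNA, and had 25 and 25 counts in cells and 554 and 750 in vesicles. Adar, which converts adenosine to inosine in double-stranded RNA, had 34 and 40 counts in cells and 273 and 449 in vesicles. Both were higher in CPM in each vesicle library than in each cell library. Higher CPM in vesicles was common, at 88.2% of measured protein-coding genes with the label shNS and 89.6% with shDis3l2. By this ratio Eif2ak2 ranked 490 of 8720 protein-coding genes (shNS) and 533 of 8974 (shDis3l2), and Adar 1667 and 1404.
The RIG-I-like receptors were low in all libraries. Ddx58, the gene of RIG-I, had 26 and 33 counts in cells and 64 and 79 in vesicles. Ifih1, the gene of MDA5, had 23 and 33 counts in cells and 48 and 66 in vesicles. Dhx58, the gene of the regulatory helicase LGP2, had 7 and 4 counts in cells and 33 and 75 in vesicles. Zbp1, which senses left-handed nucleic acid and can start necroptosis, had the opposite pattern to these 3 genes in CPM, with 61 and 26 counts in cells against 9 and 16 in vesicles.

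The genes of the transcription factors that drive the response were each higher in CPM in both vesicle libraries than in both cell libraries. Most measured protein-coding genes also had higher CPM in vesicles (88.2% with the label shNS and 89.6% with shDis3l2). The ratio of Stat2 with the label shNS turned to log2 -0.047 on the protein-coding scale. Irf7, the amplifier of type I interferon production, had 6 and 17 counts in cells and 74 and 173 in vesicles. Irf9, the DNA-binding part of the complex with STAT2, had 31 and 45 in cells and 172 and 266 in vesicles. Stat2, its partner, had 23 and 13 in cells and 80 and 101 in vesicles. In vesicles the step between labels was wider for Irf7 than for the other two, at log2 1.27 against 0.67 for Irf9 and 0.38 for Stat2.

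Genes of the ISG15 and ubiquitin pathway were led by Trim25, a ubiquitin ligase gene that acts on RIG-I and is also known to attach ISG15. Its counts were 652 and 527 in cells against 3996 and 5767 in vesicles, more than those of any other of the 41 genes in each library. Per kb of its most counted transcript it also ranked first in each, at a level of 5.93 and 5.14 CPM in cells and 39.5 and 58.8 in vesicles. The next genes on this scale of level per length were Ifit1 in cells, at 2.35 and 4.99 CPM per kb, and Eif2ak2 in vesicles, at 7.06 and 9.87.
Usp18, whose product removes ISG15 and restrains the interferon receptor, had 13 and 29 counts in cells and 130 and 198 in vesicles. Trim21, a ubiquitin ligase gene and cytosolic antibody receptor, had 7 and 8 counts in cells and 22 and 42 in vesicles. Isg15 itself had 2 and 2 counts in cells and 14 and 27 in vesicles, under the minimum of 50 in each pair. All 3 thus had their higher values in vesicles, as most measured protein-coding genes did in CPM.

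The ADP-ribosyltransferase genes and Dtx3l, whose ubiquitin ligase works as a partner of PARP9, followed the same order of libraries. Parp14 had 43 and 64 counts in cells and 368 and 614 in vesicles. Parp9 had 17 and 22 in cells and 97 and 113 in vesicles. Dtx3l had 17 and 26 in cells and 126 and 181 in vesicles. Parp9 and Dtx3l lie head to head with 458 nt of exon on opposite strands, and whether the counting used strand was not given in the sources used here, so reads of the 2 genes cannot be told apart there.

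Cxcl10, the chemokine that draws activated T cells, had 6 and 16 counts in cells and 81 and 165 in vesicles. Of the interferon-inducible GTPases, which act on vacuoles that hold microbes, Irgm1 had 19 and 29 counts in cells against 72 and 128 in vesicles. The GTPase genes Igtp, Gbp2, Gbp3 and Ifi47 had 0 to 9 counts in cells and 1 to 21 in vesicles. Of these 5 GTPase genes Irgm1 alone had enough counts for a ratio, in 3 of the 4 pairs, and it had 48 counts over the pair of cell libraries.
The remaining genes were low in cells. Ifi44 had 37 and 26 counts in cells and 119 and 200 in vesicles, and Ifi35 had 12 and 29 in cells and 32 and 62 in vesicles. Xaf1, a partner gene of the apoptosis inhibitor XIAP, had 16 and 18 in cells and 45 and 64 in vesicles. All 3 had their highest value in the vesicle library labelled shDis3l2. Rtp4, a receptor chaperone gene, had 10 and 9 counts in cells and 50 and 95 in vesicles. Cmpk2, a mitochondrial nucleotide kinase gene beside Rsad2 on chromosome 12, had 13 and 19 in cells and 31 and 62 in vesicles. Samd9l, which restrains translation and growth, had 2 and 19 in cells and 30 and 49 in vesicles.

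**Figure D2:**
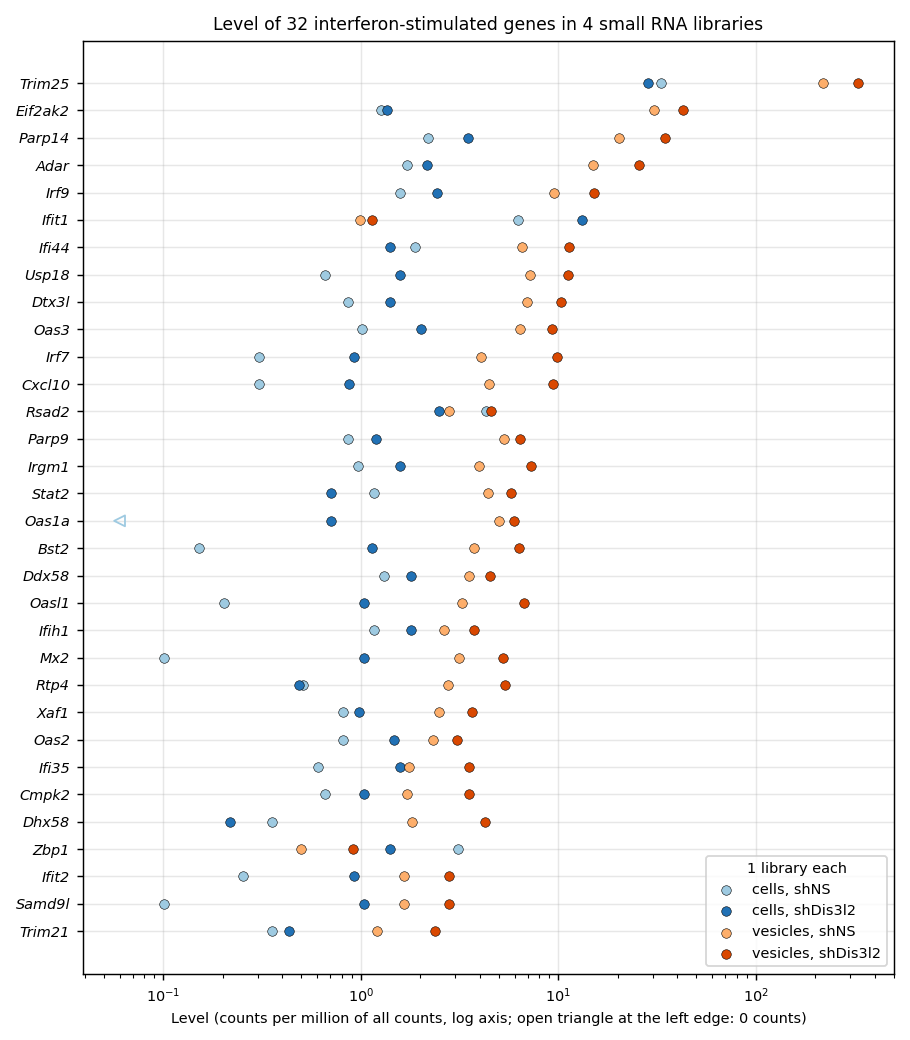
Level of each of the 32 interferon-stimulated genes measured in at least 1 pair, in CPM on a log axis, with 1 point per library and an open triangle for 0 counts (Oas1a, cells shNS). Most genes have both vesicle points to the right of both cell points, Ifit1 and Zbp1 have them to the left, and the points of Rsad2 are mixed.

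The first comparison asked whether interferon-stimulated fragments differ in cells between the labels. Ifit1 was 2.12-fold higher in the library labelled shDis3l2 (log2 1.09, 0.77 to 1.41), and Zbp1 was 2.16-fold lower (log2 -1.11, -1.85 to -0.45). They were the 2 of 12 measured genes that passed 2-fold with an interval that excludes 1, so 1 gene was higher and 1 lower. Of 5319 protein-coding genes measured in this pair, 9.59% were higher and 5.19% lower by the same rule. On the protein-coding scale Ifit1 was 1.65-fold higher and no longer passed, and 0 of the 12 genes were higher (4.87% of protein-coding genes) and 2 lower (12.7%), Zbp1 and Rsad2.
The other measured genes lay on both sides. Rsad2 was at log2 -0.78 (-1.34 to -0.25), Trim25 at -0.21 (-0.38 to -0.04) and Ifi44 at -0.40 (-1.19 to 0.35). Oas3 was at 0.97 (0.17 to 1.85) and Parp14 at 0.67 (0.09 to 1.27). Irf9 (0.63), Ifih1 (0.61), Ddx58 (0.44), Adar (0.33) and Eif2ak2 (0.10) had intervals that included 0, and Adar and Eif2ak2 turned to -0.03 and -0.26 on the protein-coding scale. In all, 8 of the 12 had a ratio above 1, against 54% of protein-coding genes, and their median was 0.38 against 0.07 for protein-coding genes. Scaled to protein-coding counts, 6 of the 12 had a ratio above 1, against 33.5%, with a median of 0.02 against -0.29. The summed level of the 41 genes was at log2 0.26 (0.15 to 0.36) in CPM but at -0.11 (-0.21 to -0.0013) on the protein-coding scale, and without Trim25 it was at 0.56 and 0.20.

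The genes with too few counts for a single ratio were summed, a step that was added after the values were seen. The 29 interferon-stimulated genes under 50 counts in the pair of cell libraries had 243 (shNS) and 416 (shDis3l2) counts. The sum was 1.84-fold higher (1.56 to 2.16) with the label shDis3l2, and 1.43-fold (1.22 to 1.68) on the protein-coding scale. The 16486 protein-coding genes under the same minimum had 126340 and 122270 counts, a ratio of 1.04 in CPM and 0.807 on the protein-coding scale. With a minimum of 20 counts in place of 50, 29 of the 41 genes had a ratio in cells and 10 of them passed as higher, against 10.6% of protein-coding genes, while 1 passed as lower, against 7.15%. These counts are in CPM. Mx2 and Samd9l (2 and 19 counts each) and Bst2 (3 and 21) reached 20 counts mainly through the library labelled shDis3l2. The count of 10 was thus partly fixed by the filter and is no evidence about the 41 genes as a whole. The number of genes that passed in cells also depended on the minimum, and most of the genes behind it had under 50 counts.

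In vesicles, the second place where the labels were compared, 30 of the 41 genes were measured. All 30 had a ratio above 1 in CPM in favour of the library labelled shDis3l2, against 74.3% of protein-coding genes. Irf7 was 2.40-fold higher (log2 1.27, 0.87 to 1.69), Dhx58 2.33-fold (1.22, 0.62 to 1.87), Cxcl10 2.10-fold (1.07, 0.68 to 1.48), Oasl1 2.06-fold (1.04, 0.58 to 1.52) and Cmpk2 2.05-fold (1.03, 0.40 to 1.72). These 5 of 30 passed 2-fold, against 9.03% of the 9696 protein-coding genes measured, and 0 of 30 were lower, against 1.7%. Dhx58 and Cmpk2 reached the minimum through the library labelled shDis3l2, with 33 and 31 counts in the one labelled shNS. Of the 30 genes, 27 had at least 50 counts in the former and 21 in the latter, so these counts were partly fixed by the filter. On the protein-coding scale none of the 30 passed in either direction, where 4.66% of protein-coding genes were higher and 4.78% lower.
The ratios of the 30 genes lay close together, from log2 0.25 (Oas1a) to 1.27 (Irf7), with a median of 0.74 against 0.30 for protein-coding genes. On the protein-coding scale they ran from -0.14 to 0.87 with a median of 0.35 against -0.10, and 26 of 30 stayed above 1, against 41.5% of protein-coding genes. The 4 below 1 on that scale were Oas1a, Parp9, Ddx58 and Stat2. Ifi35 (0.99), Rtp4 (0.97), Trim21 (0.96) and Irgm1 (0.87) were just under 2-fold in CPM. Of the genes with the most counts, Trim25 at 0.58 (0.52 to 0.63) and Eif2ak2 at 0.48 (0.32 to 0.64) lay below the CPM median of 0.74. Parp14 at 0.78 (0.60 to 0.98) and Adar at 0.76 (0.54 to 0.99) lay just above it. The summed level was 1.54-fold higher (1.50 to 1.59) in CPM and 1.17-fold higher (1.14 to 1.21) on the protein-coding scale.
Beside this, the erythroid Hbb-bs was at 3.68 and 9.71 CPM in vesicles. Of 10 macrophage markers, 5 had a ratio above 1 in vesicles, Cd14 passed as higher and Adgre1 as lower. The part of these shifts in the ratios was not tested.

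**Figure D3:**
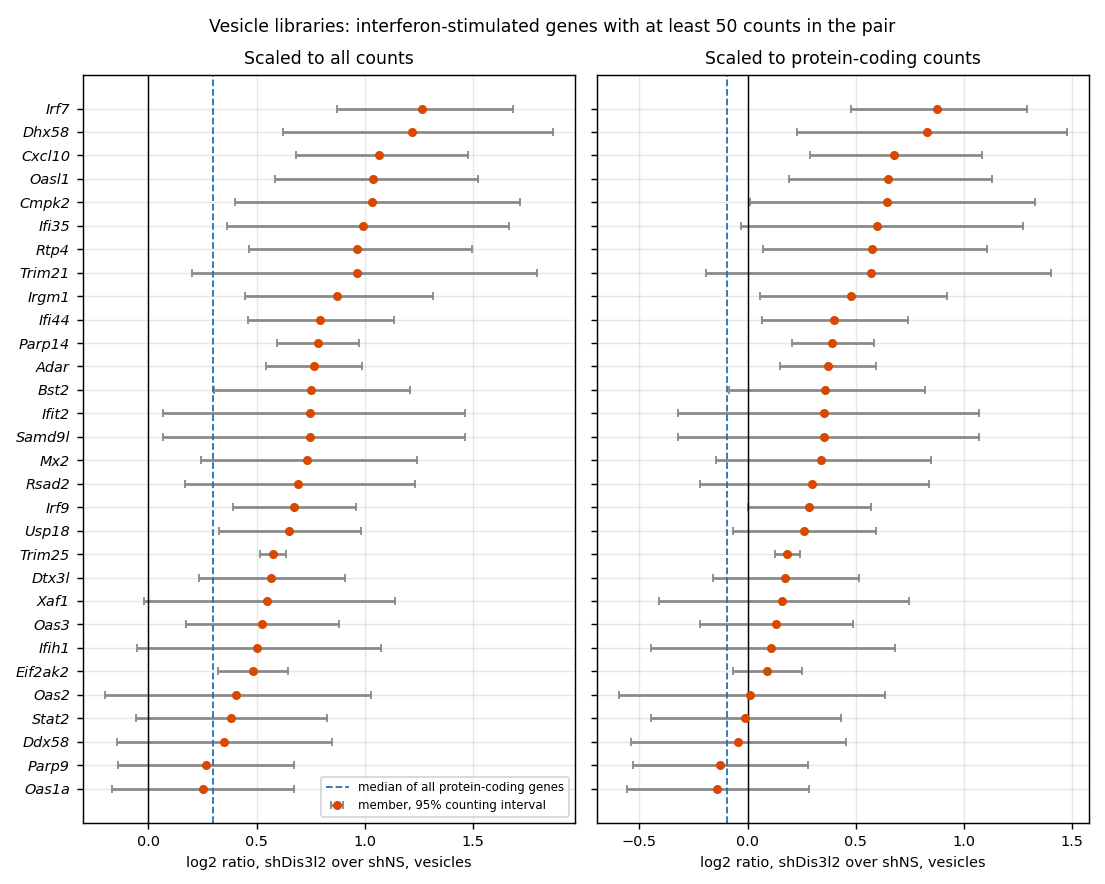
Log2 ratio of the vesicle library labelled shDis3l2 over that labelled shNS for the 30 measured interferon-stimulated genes, scaled to all counts (left) and to protein-coding counts (right), with 95% counting intervals. The dashed line is the median of all protein-coding genes, 0.30 on the left and -0.10 on the right, and most of the genes lie to the right of it in both panels.

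The last comparisons set vesicles against cells under each label, with no library in common between them. In CPM most fragments were more abundant in vesicles, as were those of most mRNAs. With the label shNS, 23 of 26 measured genes were at least 2-fold higher in vesicles, against 76.8% of protein-coding genes, and 2 were lower, against 6.34%. With the label shDis3l2, 29 of 31 were higher, against 80%, and 1 was lower, against 5.83%. Many genes had at least 50 counts in the vesicle library (21 of 26 and 27 of 31) and few had them in the cell library (4 and 3). These counts were thus partly fixed by the filter and are no evidence about the 41 genes as a whole.
Eif2ak2 had the widest gap among genes with at least 20 counts in cells. Its level was 23.6-fold higher in vesicles under the label shNS (log2 4.56, 4.01 to 5.23) and 30.8-fold higher under shDis3l2 (4.94, 4.40 to 5.61). Parp14 was 9.19-fold and 9.96-fold higher, Adar 8.60-fold and 11.6-fold, and Trim25 6.65-fold and 11.4-fold. Cxcl10 was 13.6-fold and 10.5-fold higher and Irf7 12.4-fold and 10.4-fold, from 6 to 17 counts in cells. All of these kept a ratio above 1 on the protein-coding scale, where Eif2ak2 was 6.14-fold and 7.84-fold higher.
For genes near 0 in the cell library labelled shNS the gap is a bound or a wide interval. With the label shNS, Oas1a was 32.9-fold higher in vesicles when its 0 counts in cells were set to the floor of 3 counts. The exact interval, which allows for counting error, begins at 26.2-fold. With the label shDis3l2 Oas1a was 8.17-fold higher. Mx2 was 25.0-fold higher (log2 4.64, 3.03 to 8.03) and Bst2 21.2-fold (4.41, 3.01 to 6.93) with the label shNS, from 2 and 3 counts in cells. With the label shDis3l2 Mx2 was 4.96-fold and Bst2 5.42-fold higher.

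Ifit1 and Zbp1 were the genes on the cell side. Ifit1 was lower in vesicles by log2 -2.62 (-3.46 to -1.94) with the label shNS and -3.51 (-4.28 to -2.89) with the label shDis3l2, and by -4.56 and -5.49 on the protein-coding scale. Zbp1 was at -2.58 (-3.84 to -1.62) with the label shNS and was not measured with the label shDis3l2, where it had 26 and 16 counts. Rsad2 was at -0.61 (-1.15 to -0.10) with the label shNS and at 0.86 (0.32 to 1.42) with the label shDis3l2 in CPM, but at -2.56 and -1.12 on the protein-coding scale, so its direction with the label shDis3l2 depended on the scale.
Relative to protein-coding counts as a whole, the vesicle side was mixed. On that scale 11 of 26 genes were higher (22.5% of protein-coding genes) and 3 lower (22.4%) with the label shNS, and 11 of 31 were higher (27.1%) and 2 lower (19.6%) with the label shDis3l2. The medians were 2.62 in CPM and 0.67 on the protein-coding scale with the label shNS, against 2.03 and 0.09 for protein-coding genes. With the label shDis3l2 they were 2.44 and 0.47, against 2.23 and 0.25. Ifih1, Oas2, Ddx58 and Xaf1 turned from higher to a ratio below 1 on the protein-coding scale under both labels, as did Ifi44 and Stat2 with the label shNS and Ifi35, Cmpk2, Ifit2 and Samd9l with the label shDis3l2. The summed level was 5.50-fold (5.20 to 5.83) and 7.11-fold (6.75 to 7.51) higher in vesicles in CPM, and 1.43-fold and 1.81-fold on the protein-coding scale. Without Trim25 the latter came to 1.17-fold and 1.25-fold. On this scale the sum of all protein-coding genes was itself lower in vesicles, at 0.733-fold (shNS) and 0.742-fold (shDis3l2). A scale of the counts of genes typed protein-coding was chosen after seeing the data. There the summed level of the interferon-stimulated genes was 1.95-fold and 2.44-fold higher in vesicles, and 1.60-fold and 1.69-fold without Trim25.

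**Figure D4:**
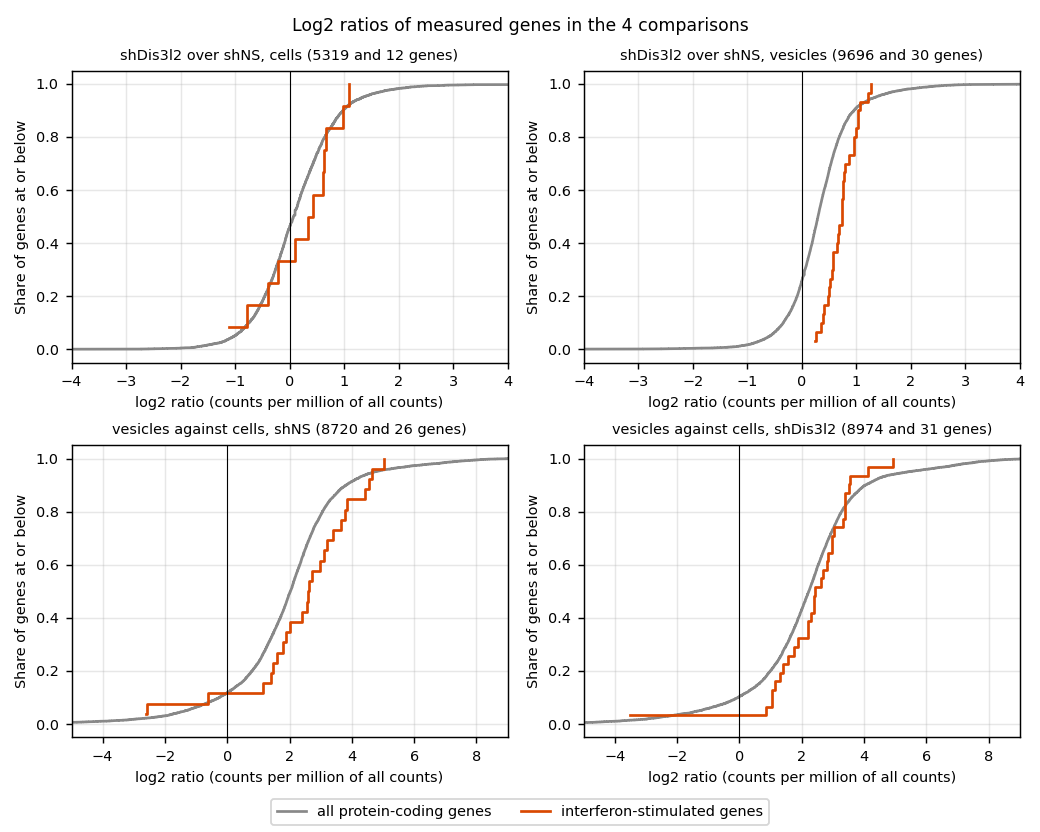
Cumulative share of genes at or below each log2 ratio (CPM) in the 4 comparisons, for all measured protein-coding genes (grey) and the measured interferon-stimulated genes (orange), with the number of each in the panel title. In vesicles the orange line of the label comparison lies to the right of 0 over its whole length (median 0.74 against 0.30), and in the panels of vesicles against cells a short step at negative ratios is Ifit1, with Zbp1 and Rsad2 beside it under the label shNS, where Oas1a is drawn at its bound.

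A fit of compartment and label together over the 4 libraries gave the one test this design allows. It has 1 residual degree of freedom and takes any difference of the label effect between compartments as noise. With edgeR's quasi-likelihood test, TMM scaling and Benjamini-Hochberg adjustment over 14578 features, 8 of 34 interferon-stimulated genes tested rose in vesicles against cells, where 16.5% of protein-coding genes did, and 3 fell, where 15.2% did.
Eif2ak2 rose by log2 3.03 (adjusted p = 0.00085, edgeR), Oas1a by 2.49 (adjusted p = 0.0392), Cxcl10 by 1.84 (0.0111), Irf7 by 1.77 (0.0126) and Adar by 1.59 (0.0122). Parp14 (1.52), Usp18 (1.35) and Dtx3l (1.17) rose as well. For all 8 genes both vesicle libraries stood above both cell libraries in CPM. The fit picked these genes from the same libraries, so this order adds nothing to it. Ifit1 fell by 4.85 on the log2 scale (adjusted p = 0.000151, edgeR), Zbp1 by 3.35 (adjusted p = 0.00133) and Rsad2 by 1.63 (adjusted p = 0.0151). For Rsad2 the order of the libraries depends on the scale, since its CPM values overlap between compartments. Trim25, at 1.37 with an adjusted p of 0.079 in edgeR, did not pass. DESeq2 called 4 genes higher (Eif2ak2, Adar, Parp14 and Trim25), where it called 9.93% of protein-coding genes, and 2 lower (Ifit1 and Zbp1), where it called 10.1%.
For the label, 0 of 34 genes passed in either direction with edgeR, where 0.0172% of protein-coding genes rose and 0% fell. At an unadjusted p under 0.05 edgeR gave 2 higher (Irf7 and Oasl1) and 0 lower, and DESeq2 gave 0 and 0. The median label effect of the 34 genes was log2 0.44 against -0.0038 for protein-coding genes in edgeR.

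The size of the label ratio was compared between compartments in the 10 genes measured in both pairs. Rsad2, Ifi44 and Trim25 had a higher ratio in vesicles than in cells. The difference of log2 ratios, vesicles minus cells, was 1.47 (0.75 to 2.19) for Rsad2, 1.19 (0.41 to 1.98) for Ifi44 and 0.78 (0.61 to 0.96) for Trim25. For the other 7 genes the interval included 0. The widest of these was that of Ifih1, from -1.04 to 0.82, so differences of that size were not detectable at this depth. For the summed level the difference was 0.37, and 0.12 without Trim25.

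**Figure D5:**
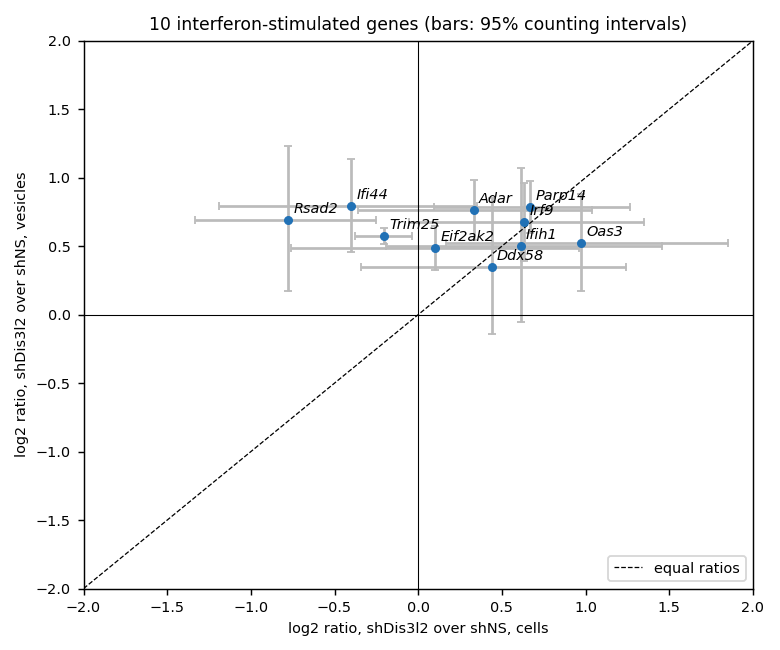
Log2 ratio of shDis3l2 over shNS in vesicles (vertical axis) against that in cells (horizontal axis) for the 10 interferon-stimulated genes measured in both, scaled to all counts, with 95% counting intervals and a dashed line of equal ratios. Rsad2, Ifi44 and Trim25 lie left of 0 in cells and above 0 in vesicles, and the other 7 genes lie right of 0 and above 0.

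The fragments were assigned mainly to coding transcripts. The split of reads among the transcripts of a gene is an estimate, and it differed between libraries for several of the genes, as described at the end. Of the counts of the 41 genes, 87.5% and 85.6% in cells and 96.5% and 95.6% in vesicles were on transcripts typed protein-coding, against 47.7% and 48.3%, and 65.1% and 65.1%, over all protein-coding genes. The share on transcripts that retain an intron was 7.77% and 10.3% in cells, against 1.98% and 2.66% in vesicles. Without Trim25 the coding share came to 76.7% and 78.3% in cells against 92.0% and 90.4% in vesicles, and that of retained introns to 14.5% and 15.5% in cells against 4.51% and 5.83% in vesicles. No small RNA gene lies in an exon of the 41 genes on the same strand, while 2 lie on the opposite strand, the rRNA-like n-R5s29 in Eif2ak2 and Mir6381 in Gbp2. Since it was not given whether the counting used strand, reads of these 2 could be among the counts of Eif2ak2 and Gbp2.
Some values share reads with other genes and are uncertain to that extent. In Oas1a 73.2% of the stretches of 24 nt also occur in Oas1g, and Ifit3 and Ifit3b share most of theirs with each other, so the authors' counting could have split these reads either way. Ifit1 shares 10.2% with Ifit1bl2, and Trim25 shares 1.05% of its stretches with other genes. These few stretches of Trim25 recur in 1880 genes, of which 22 had at least 10000 counts, among them Luc7l3 with 126342 and 221024 counts in cells. Eif2ak2 shares 8.19% of its stretches with 418 genes. One of these, AC160336.1, had 402.5 and 653 counts in cells and 19080 and 42029 in vesicles. In all, 19 of the 41 genes share a stretch with a gene of at least 10000 counts. How many of their reads came from such genes was not tested. Exons of 5 of the 41 genes overlap another gene on the same strand (Ifi47, Igtp, Irf9, Parp14 and Rtp4) and those of 12 on the opposite strand, among them Adar (1365 nt of Chrnb2) and Cxcl10 (133 nt of Art3).
The genes with the clearest differences lie apart in the genome. Trim25 spans chr11:88999376-89020293, Eif2ak2 chr17:78852564-78882573, Ifit1 chr19:34640871-34650009, Zbp1 chr2:173206612-173218923 and Irf7 chr7:141262706-141266481 (GRCm38), and the 41 genes lie on 14 chromosomes.

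The genes that induce interferon and carry its signal were read by the same rule. Of 32 such genes, 21 were measured in cells, where Jak1, the receptor kinase, was higher with the label shDis3l2 (9.59% of protein-coding genes) and 0 were lower (5.19%), with a median of 0.08. Scaled to protein-coding counts, 0 passed in either direction (median -0.28). In vesicles 5 of 27 measured genes were higher (Ifngr1, Tbk1, Traf3, Pias1 and Socs3), against 9.03% of protein-coding genes, and 0 lower, against 1.7% (median 0.39). The other scale gave 0 higher and 1 lower (Jak1), against 4.66% and 4.78%, with a median of -0.0021. Traf3, an adaptor of interferon induction, had 34 and 38 counts in cells and 587 and 1486 in vesicles. Tbk1, the kinase that activates IRF3, had 33 and 22 counts in cells and 217 and 506 in vesicles. Both had their highest value in the vesicle library labelled shDis3l2. Ptpn11, a phosphatase gene of the pathway, had 83 and 89 counts in cells and 14315 and 18918 in vesicles, and Cgas, the sensor of cytosolic DNA, had 66 and 65 in cells and 593 and 1039 in vesicles. Irf5 (40 and 43 in cells, 373 and 362 in vesicles) and Pias1 (62 and 51, 311 and 619) had higher vesicle values too. With the labels shNS and shDis3l2, 21 of 25 and 22 of 27 of these genes were at least 2-fold higher in vesicles, against 76.8% and 80% of protein-coding genes. Relative to protein-coding counts, 7 of 25 were higher and 4 lower with the label shNS (22.5% and 22.4% of protein-coding genes), and 8 of 27 were higher and 5 lower with the label shDis3l2 (27.1% and 19.6%).
A list of 58 further interferon-stimulated genes, 57 of them in the annotation, gave 4 of 17 measured genes higher in cells with the label shDis3l2 (Tapbp, Ifi205, Sp110 and Rnf213), against 9.59% of protein-coding genes, and 0 lower, against 5.19% (median 0.42). Of these, Tapbp and Ifi205 passed on the protein-coding scale, where the median was 0.06. In vesicles 3 of 42 were higher (Lgals9, Parp12 and Gbp7), against 9.03%, and 1 lower (Mov10), against 1.7%, with a median of 0.39. Parp12 and Gbp7 were still higher and Mov10 lower on the protein-coding scale, with a median of -0.0066. Zc3hav1, the gene of the antiviral protein ZAP, had 461 and 624 counts in cells and 5789 and 8239 in vesicles. Parp12 had 11 and 22 counts in cells and 783 and 3850 in vesicles. In both genes the vesicle library labelled shDis3l2 was the highest. Rnf213 had 44 and 103 counts in cells and 545 and 740 in vesicles, Slfn5 178 and 127 in cells and 269 and 435 in vesicles, B2m 57 and 90 in cells and 421 and 439 in vesicles, and Znfx1 55 and 59 in cells and 288 and 507 in vesicles. At least 2-fold higher in vesicles were 30 of 37 with the label shNS and 39 of 43 with the label shDis3l2, against 76.8% and 80% of protein-coding genes, and 1 and 2 were lower, against 6.34% and 5.83%. Relative to protein-coding counts, 13 of 37 were higher and 7 lower with the label shNS, against 22.5% and 22.4% of protein-coding genes. With the label shDis3l2, 9 of 43 were higher and 4 lower, against 27.1% and 19.6%.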

How the data were processed

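The deposited table gives estimated counts per transcript for 4 small RNA libraries, 1 per group, and 141239 features. Per the submitters' processing notes, cutadapt, Salmon and Novoalign and the builds GRCm38 and mm10 were used, with no versions given. Of the values above 0, 6.56% are whole numbers within 0.001.

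Transcripts were summed per gene through GENCODE M21 (139791 features named) and rounded to whole numbers. Log2 ratios of counts per 1000000 (CPM) used a pseudocount of 0.5 counts and exact conditional 95% intervals (Clopper-Pearson), for genes with at least 50 counts in the pair. A gene passed at 2-fold with an interval that excludes 1. No p-value was computed for pairs. The interval of a difference of log2 ratios was approximate (delta method). Additive fits used edgeR 4.0.16 and, as an alternative, DESeq2 1.42.0 (R 4.3.3), with an adjusted p under 0.05. Other steps used Python 3.11.15 with scipy 1.17.1. The pair rule and the additive fit were tested on simulated data.

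Genes with at least 50 counts in a pair were named with their 4 values, with the 6 most counted of each other list and Dis3l2. The members, lists and markers were chosen with earlier results of these data known. Alternatives were other scales, count minimums, pseudocount, transcripts summed, rounding, thinning and the tool. Promoters were RefSeq sequences.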

Additional observations from a re-analysis of the deposited data

Results flagged for a closer look

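Rsad2, the viperin gene, had label ratios of opposite sign in the compartments, with log2 ratios (shDis3l2 over shNS) of -0.78 and 0.69 in cells and in vesicles. Trim25 likewise had label ratios of -0.21 and 0.58 in cells and in vesicles. Rsad2 also had opposite ratios of vesicles over cells under the labels shNS and shDis3l2, at -0.61 and 0.86. Each of these values rests on 1 library per group, all intervals of counting error exclude 0, and the differences were not tested against replicates. On the protein-coding scale the vesicle ratios of Rsad2 were -2.56 and -1.12, so the opposite signs of that pair were not seen there.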

How the results depend on the processing

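No analysis of paired replicates was possible because each group had 1 library. The additive fit sets vesicles against cells within each label. Leaving out 1 library would leave the additive fit no residual degree of freedom, so that was not run. Of 1107 values of single genes under the alternatives, 71 changed sign, 46 of them in genes that had passed 2-fold in that comparison, and those 46 came from the scale or from leaving out the largest transcript. Among the other 25, ratios of Rsad2 in vesicles against cells with the label shDis3l2 turned on each scale (-1.12 protein-coding, -0.99 TMM, -0.97 DESeq2 and -0.69 gene-typed), and with coding transcripts alone the label ratios of Ddx58 (-0.60) and Stat2 (-0.39) in vesicles turned. The gene-typed scale and the sums without Trim25 were chosen after seeing the data. The cause of the changes below was not tested.

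On the protein-coding scale, the genes that passed in cells by label were 0 higher and 2 lower, 0 were higher in vesicles, and 11 were higher in vesicles against cells under each label, with 2 lower for shDis3l2. The medians there were 0.67 (shNS) and 0.47 (shDis3l2), and the summed label ratio in cells was -0.11. With TMM factors 0 and 0 genes were higher by label in cells and vesicles (7.75% and 5.5% of protein-coding genes). In vesicles against cells 12 (shNS) and 11 (shDis3l2) were higher (29.4% and 30.6%), with medians of 0.96 and 0.60. With DESeq2 size factors these values were 0 and 1, 12 and 12, 0.96 and 0.62, and no share of protein-coding genes was computed. With counts of genes typed protein-coding they were 0 and 0 (5% and 4.66% of protein-coding genes), 15 and 15 (34.4% and 39.7%), 1.12 and 0.90. There 2 were lower by label in cells (12.2%), and the summed label ratio in cells was -0.089. The difference of summed label ratios was 0.18 (TMM), 0.21 (DESeq2) and 0.12 (without Trim25).

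Of the genes that had passed, ratios of vesicles against cells with the label shNS changed sign on the protein-coding scale for Ifih1 (-0.78), Ddx58 (-0.54), Oas2 (-0.46), Xaf1 (-0.36), Ifi44 (-0.15) and Stat2 (-0.047). With TMM factors they did for Ifih1 (-0.49), Ddx58 (-0.26), Oas2 (-0.17) and Xaf1 (-0.076), with DESeq2 size factors for the same 4 (-0.50, -0.26, -0.18 and -0.079), and on the gene-typed scale for Ifih1 (-0.33), Ddx58 (-0.093) and Oas2 (-0.011). With the label shDis3l2 the sign changed on the protein-coding scale for Oas2 (-0.92), Ifih1 (-0.92), Ifi35 (-0.83), Ddx58 (-0.66), Samd9l (-0.56), Ifit2 (-0.41), Cmpk2 (-0.23) and Xaf1 (-0.11). With TMM factors it did for Oas2 (-0.79), Ifih1 (-0.79), Ifi35 (-0.70), Ddx58 (-0.53), Samd9l (-0.44), Ifit2 (-0.28) and Cmpk2 (-0.099), and with DESeq2 size factors for the same 7 (-0.77, -0.77, -0.67, -0.51, -0.41, -0.26 and -0.077). On the gene-typed scale it did for Oas2 (-0.49), Ifih1 (-0.49), Ifi35 (-0.39), Ddx58 (-0.23) and Samd9l (-0.13).

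With a minimum of 20 counts, 10 genes were higher by label in cells (10.6% of protein-coding genes), and 12 with no minimum. For the other pair counts in this paragraph no share of protein-coding genes was computed. With a minimum of 100, 0 were lower by label in cells, and 11 higher and 1 lower in vesicles against cells for shNS, since fewer genes were tested. With a pseudocount of 5, 0 were lower by label in cells and 3 higher in vesicles. Unrounded counts gave 2 higher in cells. Thinned libraries gave 2 and 1 higher by label in cells and vesicles, and 8 and 12 in vesicles against cells for shNS and shDis3l2. Coding transcripts alone gave 2 higher and 0 lower in cells. Without the largest transcript of each gene, few genes kept 50 counts. Then 2 were higher and 0 lower by label in cells (median 1.21), 3 higher in vesicles, and 2 higher and 0 lower for shNS (median 3.64) and 4 higher for shDis3l2 (median 0.89) in vesicles against cells. Trim25 turned to -8.73 and Ifi35 to -0.049 there (shDis3l2), and the difference of summed label ratios to -0.83. In the additive fit 4 of 34 genes were higher in vesicles with DESeq2, where 9.93% of protein-coding genes were. With a minimum of 20 counts 15 of 38 were higher, and with 100 counts 5 of 31 were. For these minimums no share of protein-coding genes was computed in the fit. Whether the share moved likewise is thus not known, and these counts are no evidence about the interferon-stimulated genes as a whole.

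Depth limits mainly the cell libraries, where 12 of the 41 genes had a ratio, and all intervals leave out the spread between cultures.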

Other observations

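The split of reads among near-identical transcripts differed between libraries for several of the genes, among them Trim25, Adar, Irf7 and Igtp. Outside the cell library labelled shDis3l2, all counts of Trim25 were on 1 coding transcript of 5566 nt, while in that library it held 306 counts and another coding transcript of 5590 nt held 219. Adar had its counts in vesicles on a pair of coding transcripts that begin at different first exons, with 74.0 and 310 counts on the one of 5871 nt and 193 and 133 on the one of 5909 nt. Irf7 had 0 and 92.8 counts in vesicles on its coding transcript of 1916 nt and 33.9 and 0 on the one of 1764 nt. Igtp had 21.4 and 0 in vesicles on its coding transcript of 1767 nt and 0 and 19.7 on the one of 2022 nt. Sums per gene, as used above, do not depend on this split.

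The protein-coding genes whose 4 levels ran most like the summed interferon-stimulated genes, of 1475 with at least 50 counts in every library, were Nasp, Naa50, Mapk6, Susd6 and Rpl34. The likeness is the root mean square difference of centred log2 CPM over the 4 libraries, which was 0.022 for Nasp and 0.082 for Rpl34. Nasp, a histone chaperone gene, had 1411 and 1590 counts in cells and 7311 and 11136 in vesicles.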
